A study of Mus musculus with 416 samples.

Results

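The Zfp900-series genes are the protein-coding mouse genes whose symbol is Zfp followed by a number of 3 digits that begins with 9, with or without a final a or b. They were chosen by symbol alone, and 65 of the 46517 gene identifiers of the table met that rule. Another row, the pseudogene Zfp939, matched the pattern and was left out because it is not protein-coding. The table covered 416 libraries of ribosome-depleted, stranded total RNA from the striatum, each from a separate animal. The animals were J:DO mice, Diversity Outbred animals bred from several inbred founder strains, and all were drug-naïve. They came from generations 21, 22 and 23, with 76, 60 and 72 females and 74, 59 and 75 males. Age was not given in the sources used here, and no genotype of single animals was used.

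C2H2 zinc finger proteins hold tandem fingers that each contact a few bases of DNA. Many members of this family also carry a KRAB domain, which recruits the corepressor Trim28 (KAP1) and, through it, the histone methyltransferase Setdb1 and HP1 proteins, and much of what these complexes silence is transposable element sequence. The genes lie in clusters of recent duplicates, and in the mouse the clusters on distal chromosome 2 and distal chromosome 4 are known to differ between strains in gene content. In the annotation's coding sequences, a KRAB-like pattern was found in 55 of the 65 genes, with a median of 11 C2H2 finger patterns and a highest number of 21, in Zfp974. The genes were spread over 12 chromosomes, with 16 on chromosome 4, 15 on chromosome 17, 11 on chromosome 2 and 8 on chromosome 7.

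Several members are near copies of each other, which is shown here by the start of the genes on which the results below turn. The 250 bases upstream of the transcription start were taken from RefSeq (build GRCm38.p6), for the neighbours Zfp955a (chr17:33255146-33255395, minus strand) and Zfp955b (chr17:33289294-33289543, plus strand) and for 3 members of the chromosome 2 cluster, Zfp968 (chr2:175372186-175372435, plus strand), Zfp966 (chr2:175931101-175931350, minus strand) and Zfp970 (chr2:177464492-177464741, plus strand). Each is written from 5′ to 3′ on the strand of the gene, and capitals mark CCAAT or its reverse complement ATTGG.
Zfp955a: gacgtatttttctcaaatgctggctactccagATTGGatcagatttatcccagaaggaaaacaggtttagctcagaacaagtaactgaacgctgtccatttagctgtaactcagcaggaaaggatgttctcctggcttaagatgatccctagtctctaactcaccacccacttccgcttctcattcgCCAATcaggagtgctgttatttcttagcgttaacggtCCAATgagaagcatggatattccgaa
Zfp955b: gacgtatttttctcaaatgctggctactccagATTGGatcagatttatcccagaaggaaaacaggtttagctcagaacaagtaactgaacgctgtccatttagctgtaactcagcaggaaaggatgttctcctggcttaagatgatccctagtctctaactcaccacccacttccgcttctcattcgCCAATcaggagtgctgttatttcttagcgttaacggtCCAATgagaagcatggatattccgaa
Zfp968: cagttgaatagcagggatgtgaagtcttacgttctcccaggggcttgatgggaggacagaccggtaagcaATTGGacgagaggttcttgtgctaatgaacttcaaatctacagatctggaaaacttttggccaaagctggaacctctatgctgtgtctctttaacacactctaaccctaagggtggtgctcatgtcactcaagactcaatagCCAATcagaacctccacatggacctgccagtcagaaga
Zfp966: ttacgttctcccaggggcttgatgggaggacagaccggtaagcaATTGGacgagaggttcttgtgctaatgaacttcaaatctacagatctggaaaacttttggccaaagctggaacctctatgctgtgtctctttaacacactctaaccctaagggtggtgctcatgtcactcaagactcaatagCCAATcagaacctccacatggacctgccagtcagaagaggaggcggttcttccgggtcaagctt
Zfp970: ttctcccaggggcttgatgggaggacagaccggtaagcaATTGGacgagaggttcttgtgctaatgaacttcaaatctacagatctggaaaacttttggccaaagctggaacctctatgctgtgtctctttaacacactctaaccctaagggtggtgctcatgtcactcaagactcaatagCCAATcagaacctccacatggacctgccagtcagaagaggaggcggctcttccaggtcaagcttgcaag
The windows of Zfp955a and Zfp955b were identical over all 250 bases. Zfp968 and Zfp966 were identical at 100% of the bases in which their windows overlapped when aligned, and so were Zfp968 and Zfp970. The windows of Zfp973 and Zfp965, on the same chromosome, were identical over an overlap of 210 bases, and Zfp973 differed from Zfp968 at 1 of 250 bases. The chromosome 17 windows matched the chromosome 2 windows at 54.03% to 56.25% of aligned bases, which serves as the level of unrelated members.

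RefSeq windows matched 55 of the 65 members. A CCAAT box, on either strand, was present in the window of 42 of these 55 genes (76.4%). The same search found it in 45.7% of the other Zfp genes with a window and in 37.5% of the 27025 genes with a window. The motif GGGCGG or its reverse complement CCGCCC was present in 29.1% of the members, 45.3% of the other Zfp genes and 35.4% of all genes. The motif CTTCCGG or CCGGAAG was present in 20% of the members, 17.7% of the other Zfp genes and 7.83% of all genes. Members share ancestry and sequence, so these shares describe the family and carry no test, and a letter match is not a binding site.

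The libraries held between 20331813 and 77458299 estimated counts, with a median of 43516366. Of the 12 spiny projection neuron genes on the marker list, the defining genes of striatal tissue, all were measured, and the lowest median among them was 66.98 CPM (counts per 1000000 counts of the library, after scaling of library totals). In 29 libraries the Xist level went against the sex label, and another set of 29 had a low total or a low correlation with the rest, and the counts reported below were also computed without each set. No pair of libraries was identical. Libraries were compared between labelled sexes and between generations, and each of these p-values sets a difference against the spread between animals. That spread does not show how far separate cohorts of a generation would differ.

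Most members were expressed in the striatum at low to moderate levels. After the filter on low counts 59 of the 65 were tested, 54 had a mean of at least 0.5 CPM, and 50 had counts in every library. The median of the 65 mean levels was 8.47 CPM, or 2.77 CPM per kb of exon. The 6 genes that did not pass the filter were Zfp936, Zfp967, Zfp969, Zfp978, Zfp987 and Zfp989. Among them, Zfp967 and Zfp969 had a rounded count of 0 in all 416 libraries, and every 100-base word of their transcripts also occurs in another gene, most often Zfp968. A count of 0 for such a gene therefore does not bear on whether it is transcribed. Of all 65 members, 15 shared no 100-base word with another gene, 23 shared over 20% and 13 shared over 50%.

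Per kb of exon, the highest level was that of Zfp970 (15.8 ± 4.42 CPM per kb, SD, n = 416), a chromosome 2 gene with 14 fingers. It ranged from 12.1 to 70.9 CPM with a median of 32.02. Next came Zfp932 on chromosome 5 (11.9 ± 2.41 CPM per kb), known with its paralog Gm15446 as a repressor of endogenous retroviruses, at 11.9 to 66.1 CPM with a median of 37.7. Zfp968 followed at 10.01 ± 5.20 CPM per kb, but 88.6% of its 100-base words occur in other genes, and it varied from 5.52 to 109.6 CPM around a median of 26.8. Zfp949 on chromosome 9 (8.08 ± 2.15 CPM per kb) shares no 100-base word with another gene, and its median was 29.1 CPM within 19.2 to 65.3. Zfp938 on chromosome 10 and Zfp931 on chromosome 2 were close to each other, at 7.92 ± 0.873 and 7.85 ± 0.881 CPM per kb. In this ranking each gene differed from the next by less than the larger of their SDs. At the other end, 11 members, among them Zfp985, Zfp986 and Zfp988 of chromosome 4, had means under 0.5 CPM.

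**Figure D1:**
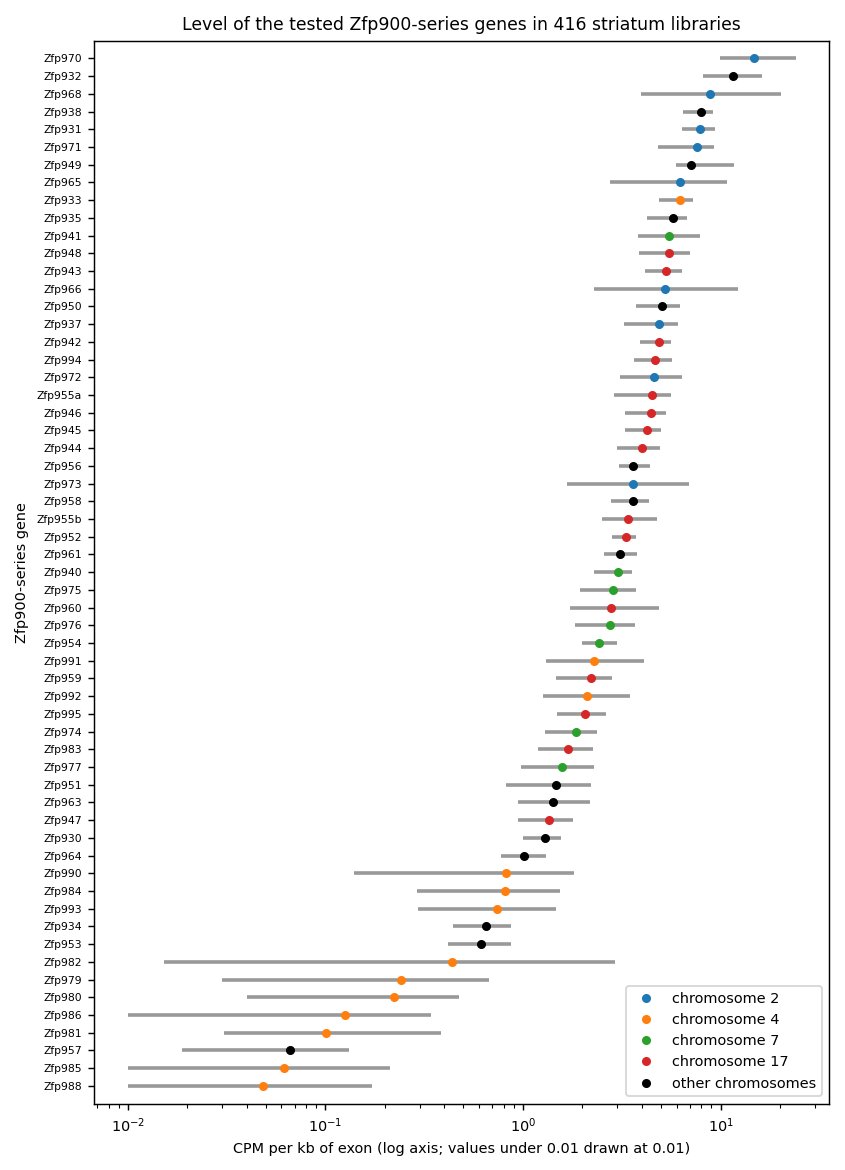
Median CPM per kb of exon (points, log axis) of the 59 tested genes over 416 libraries, with lines from the 5th to the 95th percentile of libraries and colours for chromosomes. Zfp970 has the highest level, and most of the long lines belong to genes of chromosomes 2 and 4.

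How far a member varied between animals differed widely within the family. Spread is given as edgeR's biological coefficient of variation (CV) divided by the trend of that CV at the same level. A ratio of 1 lies on the trend, but most genes lay below it, with a median ratio of 0.610 over all genes tested. The largest ratio was that of Zfp982 on chromosome 4, at 2.85 (biological CV 1.19), whose level went from 0 to 7.98 CPM with a median of 0.652. Zfp968 and Zfp966, near copies on chromosome 2, followed at 2.35 and 2.15. Zfp966 ranged from 1.69 to 65.9 CPM with a median of 15.7. Zfp965 (ratio 1.86) ranged from 0.226 to 37.1 CPM, and the chromosome 4 genes Zfp990 (1.84) and Zfp979 (1.79) from 0 to 12.5 and from 0 to 4.50 CPM. These 6 most variable members all lie on chromosomes 2 and 4. By contrast, Zfp952 on chromosome 17 had the smallest ratio, 0.320, and stayed between 9.52 and 18.1 CPM with a median of 14.5. Zfp954 (0.354) and Zfp956 (0.385) stayed within 3.78 to 7.86 and 7.24 to 14.2 CPM.

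By chromosome, the median ratio was 1.355 over the 13 tested members of chromosome 4, 1.336 over the 9 of chromosome 2 and 0.599 over the 15 of chromosome 17. Over all 59 members the median was 0.752, against 0.485 for the other Zfp genes and 0.610 for all 22968 genes tested. A ratio above 1 was found in 35.6% of members, 4.78% of the other Zfp genes and 19.4% of all genes. A ratio above 2 was found in 3 members (5.09%), which is close to the 4.62% of all genes. Sequence shared with other genes moved with the spread: the median ratio was 1.255 in the 18 tested members that share over 20% of their 100-base words and 0.615 in the other 41, and Spearman's rho between the shared percentage and the ratio was 0.57 across genes, which are not independent replicates. Single members departed from this in both directions. Zfp982 and Zfp990 shared 3.06% and 3.60% of words at ratios of 2.85 and 1.84, and Zfp935 shared 99.35% at a ratio of 0.494. The part of shared sequence in the spread was not tested. The distributions leaned to the low side. Adjusted log2 CPM is log2 CPM after removal of sex and generation. Its skew was below 0 in 49 of 54 members (90.7%), with a median of -0.55, against 77.8% of other Zfp genes and 65.7% of all genes. Skew was not computed without the 29 libraries of low total or correlation, which held the lowest values of some members.

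In 4 of the 54 members with a mean of at least 0.5 CPM, the libraries fell into 2 modes, by a mixture of 2 normal components. This share, 7.41%, is close to the 6.25% of all 19061 genes examined in the same way, so having 2 modes is not particular to the family. The clearest was Zfp949. Its 140 libraries of the high mode (33.7%) lay between 32.3 and 65.3 CPM with a median of 43.3, and the others lay between 19.2 and 33.3 CPM with a median of 27.6. The modes touched only at 32.3 to 33.3 CPM. The high mode held 32.7%, 38.7% and 30.6% of libraries in generations 21, 22 and 23, and 35.6% of females and 31.7% of males, so both modes were present at a similar share in every group. Zfp982 had the largest fold between modes, with component means of 0.389 and 3.13 CPM, an 8.06-fold difference. Its high mode held 34.9% of libraries, between 1.47 and 7.98 CPM, and 16 libraries of the low mode had a count of 0. Zfp937 (component means 10.5 and 14.6 CPM, 67.6% of libraries high) and Zfp940 (14.7 and 18.9 CPM, 84.4% high) had modes that lay closer together in level. Zfp949 and Zfp982 also had 2 modes within each generation alone, whereas Zfp937 did not in generation 21 and Zfp940 did not in generations 21 and 22 nor with a BIC gain above 50. Zfp982 is a gene of the variable chromosome 4 cluster, while Zfp949, Zfp940 and Zfp937 lie on chromosomes 9, 7 and 2.

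**Figure D2:**
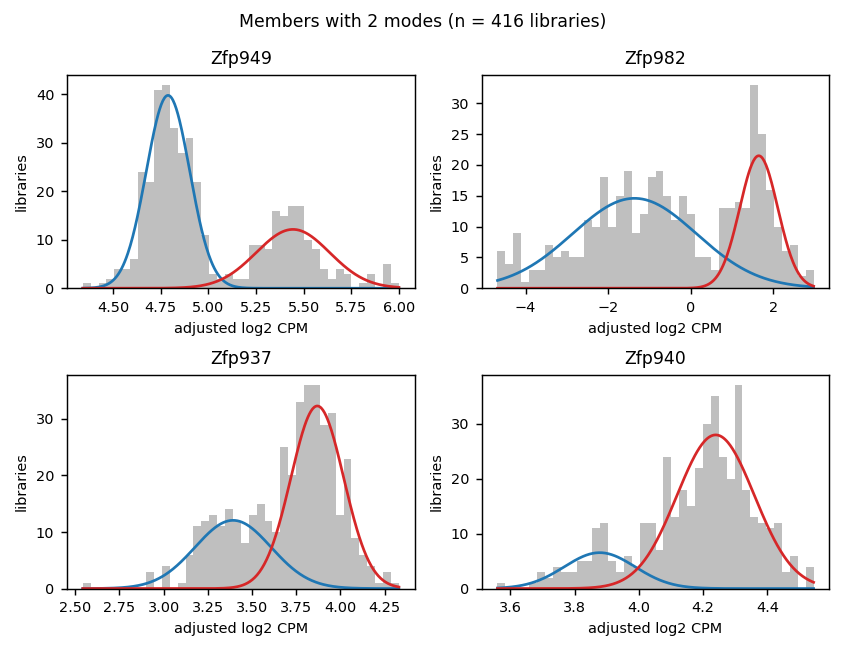
Histograms of adjusted log2 CPM over 416 libraries for the 4 members with 2 modes, with the fitted low (blue) and high (red) components, and the number of libraries on the vertical axis. Zfp949 and Zfp982 show separate peaks, at 27.6 and 43.5 CPM and at 0.389 and 3.13 CPM, while the components of Zfp937 and Zfp940 lie within a smaller range of levels.

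For the members with the largest spread, the genes with the most similar adjusted levels lay mostly on the same chromosome. For Zfp968 the 3 most alike of all genes tested were Zfp966 (r = 0.97), Gm26869 (0.83) and Zfp973 (0.83), and all of the 20 most alike lie on chromosome 2. For Zfp966, all 20 lie there as well. For Zfp965 the leading gene was Gm14305 (0.90), with 19 of 20 on chromosome 2, and for Zfp990 it was Gm13230 (0.76), with 18 of 20 on chromosome 4. For the genes with 2 modes no pooled r is given. Within the high mode of Zfp982, r with Gm16503, a protein-coding gene of chromosome 4, was 0.71, and within the low mode it was 0.50. Zfp949 ran opposite to 9430037G07Rik, a long non-coding RNA gene of chromosome 9, with r = -0.71 within its high mode and r = -0.09 within its low mode. The other 2 genes with 2 modes had fewer genes of their own chromosome among the 20 most alike, 7 for Zfp940 and 4 for Zfp937, whose 3 most alike lie on chromosomes 4, 9 and 6. Values without a named mode are over 416 libraries, those within a mode are over its libraries alone, and all are descriptions. Copies that share sequence can also share assigned reads.

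Most neighbouring members had positively correlated levels across animals. Members next to each other in the annotation's order, with at most 10 protein-coding genes between them, formed 31 pairs. In 4 of the 31 pairs the libraries fell into clusters by the same mixture of 2 normal components. In 2 of them this was in the ratio of the genes, and in 2 by the modes of Zfp982. These 4 are described within their clusters, and the share of such pairs among all consecutive genes was not computed. Among the 27 others, an absolute r above 0.3 was found in 18 (66.7%), each positive. With the 4 pairs counted at their pooled values it was found in 20 of 31 (64.5%), and the lowest r, -0.44, was that of Zfp955a and Zfp955b. The share was 24.4% of all 14474 pairs of consecutive protein-coding genes, none left out for clusters. The median r was 0.379 (interquartile range 0.280 to 0.625) in the 27 pairs, 0.366 with the 4 others counted at their pooled values, and 0.109 in all consecutive pairs. It was 0.113 over the 1219 pairs of members on different chromosomes and 0.247 over the other pairs of members on one chromosome. Of the 27 pairs, 26 had an r past an adjusted p of 0.05, all of them positive (permutation test over libraries, two-sided, Benjamini-Hochberg over 27 pairs), and by Spearman's rho 25 did. The 18 pairs of the 27 in which the first gene shares no 100-base word with the second had a median r of 0.372.

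The strongest pair was Zfp966 and Zfp973 on chromosome 2, with 8 protein-coding genes between them, at r = 0.88 and rho = 0.81 (permutation p = 1e-05 for each, the smallest the permutations can give, adjusted p = 1.23e-05). Leaving out the 2 libraries farthest from the median left r at 0.87, and r was 0.88, 0.90 and 0.87 in generations 21, 22 and 23. Their transcripts share 6.88% and 7.93% of 100-base words with each other, but 79.9% of the words of Zfp966 and 73.2% of those of Zfp973 occur in some other gene. Zfp965 and Zfp966 followed (r = 0.83, rho = 0.80, and r = 0.84 without 2 libraries). Zfp976 and Zfp975, adjacent genes of chromosome 7 on the same strand, had r = 0.83 and rho = 0.81 (0.81 without 2 libraries), and Zfp977 and Zfp976 beside them had r = 0.72 and rho = 0.68 (0.70 without 2). On chromosome 2, Zfp968 and Zfp965 reached r = 0.76 and rho = 0.74 (0.75 without 2), and on chromosome 4, Zfp990 and Zfp980 reached r = 0.73 and rho = 0.70 (0.72 without 2). Each of these 6 pairs had the same smallest permutation p for r and for rho. The weakest were Zfp983 and Zfp995 on chromosome 17, with 4 protein-coding genes between them and r = -0.05 (permutation p = 0.311, rho = -0.07), Zfp952 and Zfp955a with r = 0.12 (adjusted permutation p = 0.0190), and Zfp980 and Zfp992 with r = 0.13 (adjusted permutation p = 0.0108).

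**Figure D3:**
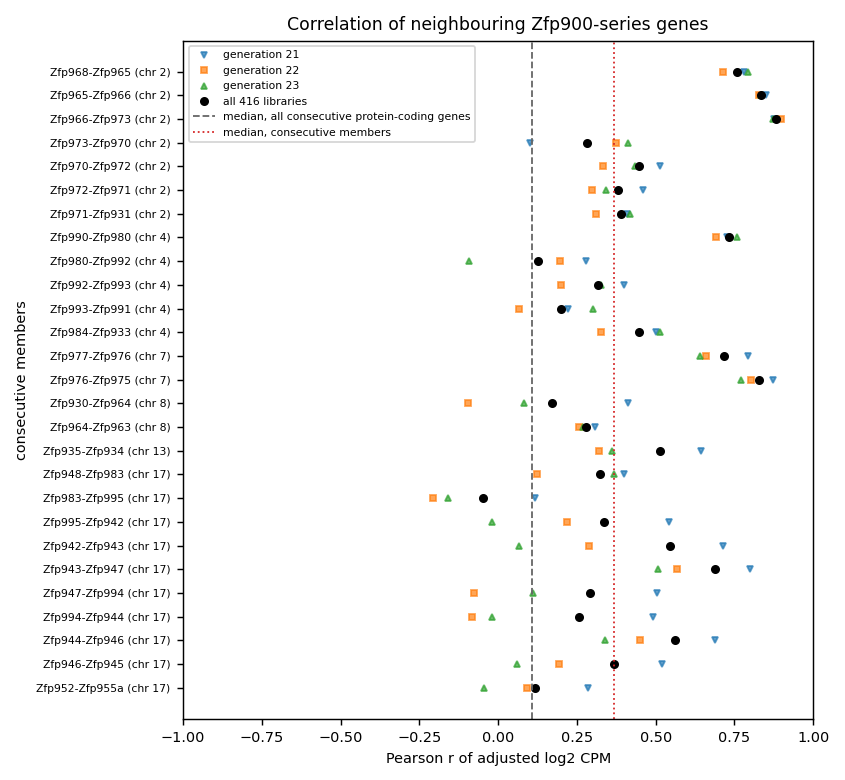
Pearson r of adjusted log2 CPM for the 27 pairs of consecutive members without clusters, over all 416 libraries (black) and within each generation (coloured), with the median over all consecutive protein-coding genes (0.109, dashed) and over all 31 pairs of consecutive members (0.366, dotted). Nearly all black points lie above the dashed line, and the points of generation 21 lie farthest right in 20 of the 27 pairs.

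Members of the chromosome 2 cluster with like upstream windows differed in r. The promoter windows of Zfp970 and Zfp968 were identical where they overlapped, as were those of Zfp966 and Zfp968. The value of r was 0.62 for the first pair and 0.97 for the second. The Zfp968 window ends before a stretch in which Zfp966 and Zfp970 differed at 2 bases. There Zfp966 has the motif CTTCCGG and Zfp970 does not. The part of these bases in r was not tested. Of the 100-base words of Zfp968, 66.5% occur in Zfp966, 25.6% in Zfp973 (r = 0.83) and 6.63% in Zfp970, while Zfp966 and Zfp973, which share 6.88% and 7.93%, had r = 0.88. The part of shared sequence in these values was not tested. The sum of Zfp968 and Zfp966 varied about as much as either gene alone (SD of adjusted log2 CPM 0.717 for the sum, 0.712 and 0.743 for the genes). Zfp970 had r = 0.28 with its neighbour Zfp973, 0.23 with Zfp965 and 0.56 with Zfp966.

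In 11 libraries, 6, 3 and 2 of generations 21, 22 and 23 and none of them among the 29 of low total or correlation, Zfp973 stood apart from all others. Zfp973 lay between 1.39 and 2.36 CPM there and between 3.64 and 29.6 CPM in the others. In the same 11 libraries Zfp965 lay between 0.226 and 3.16 CPM, against 4.50 to 37.1 CPM in the others, and Zfp966 between 1.69 and 5.22 CPM, against 5.26 to 65.9 CPM. The 11 libraries were picked by a gap in the adjusted level of Zfp973, so its separation follows from that choice. Zfp965 and Zfp966 did not overlap between the 11 libraries and the others either. Over all libraries their r with Zfp973 was 0.85 and 0.88, so their separation is not independent of that choice. How many of all genes would not overlap was not computed. Zfp968 was also at the low end, at 5.52 to 10.4 CPM against 9.59 to 109.6 CPM, while Zfp970, at 26.3 to 46.9 CPM, lay inside the range of the others (12.1 to 70.9 CPM). Thus Zfp965, Zfp966 and Zfp968 were low together with Zfp973, and Zfp970 was not. These 5 genes, of 9 tested members of chromosome 2, were chosen for their like upstream windows. Of the 100-base words of Zfp973, 72.1% occur in Zfp965, and 83.7% of those of Zfp965 occur in Zfp973. Of the words of Zfp968, 66.5% occur in Zfp966. The low values of these genes therefore need not be separate observations, and the part of shared sequence was not tested. Without these libraries, which were picked by their values, r was 0.84 for Zfp966 and Zfp973, 0.82 for Zfp965 and Zfp966 and 0.77 for Zfp968 and Zfp965, and r of Zfp970 with Zfp973 was 0.41.

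**Figure D4:**
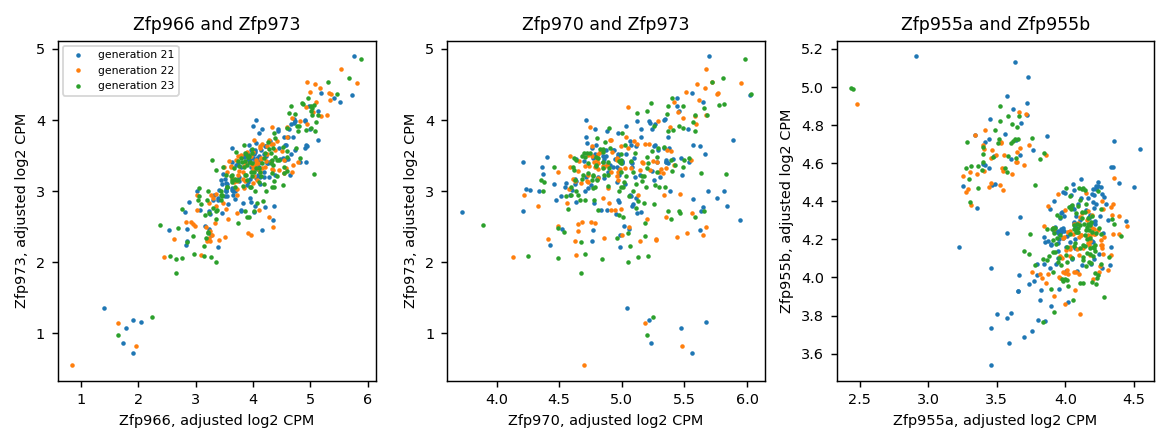
Adjusted log2 CPM of 3 pairs of members in 416 libraries, 1 point per library, coloured by generation. Zfp966 and Zfp973 lie along 1 line (r = 0.88) with 11 libraries at its low end, the same 11 stand below the rest for Zfp970 and Zfp973, and Zfp955a and Zfp955b form separate clouds.

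Zfp955a and Zfp955b, the chromosome 17 pair with the identical upstream windows printed above, differed in their balance between animals. The share of Zfp955a in the sum of both fell into separate clusters. In 99 libraries (23.8%) Zfp955a made up 14.2% to 40.6% of the sum with a median of 30.9%, and in the other 76.2% it made up 40.1% to 56.6% with a median of 47.6%. In the 99 libraries Zfp955a had a median of 11.5 CPM (5.56 to 14.9) and Zfp955b one of 25.7 CPM (15.2 to 33.6). In the other libraries the medians were 17.2 CPM (10.4 to 22.2) and 18.6 CPM (10.7 to 24.1). The sum of both was alike, with medians of 37.6 and 35.7 CPM. Over all libraries the SD of adjusted log2 CPM was 0.319 for Zfp955a, 0.268 for Zfp955b and 0.155 for the sum, so the genes varied more than their total. The cluster with the lower share held 20%, 28.6% and 23.8% of libraries in generations 21, 22 and 23. Within the clusters r was -0.07 and 0.52, and a split on the ratio can itself change these values. By generation they were 0.15, -0.06 and -0.33 in the first and 0.75, 0.38 and 0.17 in the second, for generations 21, 22 and 23. The transcripts share 26.5% of the 100-base words of Zfp955a and 15.8% of those of Zfp955b, and whether reads moved between copies when they were assigned was not tested.

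The other pairs with clusters lie on chromosome 4. For Zfp979 and Zfp984 the ratio had 2 modes that overlapped. Zfp979 made up 0% to 22.1% of the sum in 28.8% of libraries and 18.2% to 80% in the other 71.2%. Within these modes r was 0.82 and 0.78, values that a split on the ratio can itself raise. For Zfp991 and Zfp982, r was -0.01 within the low mode of Zfp982 and 0.41 within its high mode. For Zfp982 and Zfp979 these values were 0.00 and -0.02.

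Between generations the family leaned to higher levels in the later animals. From generation 21 to 22, 37 of 59 members passed an adjusted p of 0.05, 36 of them higher and 1 lower (edgeR's quasi-likelihood test with Benjamini-Hochberg adjustment over all genes). This stands beside 46.6% of all 22968 genes called, 22.1% higher and 24.5% lower. From generation 21 to 23, 40 passed, 37 higher and 3 lower, beside 58.3% of all genes, 25.8% higher and 32.6% lower. The median log2 difference over the 59 members was 0.11 and 0.13, against -0.01 and -0.02 over all genes. Both comparisons share the libraries of generation 21. Of the other Zfp genes, 43.9% were higher and 22.9% lower in generation 22, and 42.4% were higher and 28.7% lower in generation 23, with medians of 0.04 and 0.03. Between generations 23 and 22, 8 members passed, 4 in each direction, beside 18.2% of all genes (8.53% higher and 9.63% lower). Across all 3 generations 44 members differed, beside 63.8% of all genes.

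The differences were small next to the range of single animals, and the generations overlapped for every gene named here. Zfp950, a chromosome 19 gene with 17 fingers and the highest mean of the family at 53.4 ± 8.11 CPM (SD, n = 416), ranged from 19.4 to 62.9 CPM in generation 21 with a median of 49.3. It ranged from 39.5 to 78.3 CPM in generation 22 with a median of 54.7, and from 41.6 to 74.7 CPM in generation 23 with a median of 56.1. Its log2 difference was 0.17 ± 0.025 (SE) for generation 22 (adjusted p = 1.82e-09) and 0.22 ± 0.024 for generation 23 (adjusted p = 1.06e-16). The lowest value lay in generation 21, and without the 29 libraries of low total or correlation the lowest over all libraries was 32.1 CPM. Zfp933, the chromosome 4 gene with the smallest p, had medians of 24.97, 27.3 and 27.7 CPM in generations 21, 22 and 23, with lowest values of 14.3, 21.6 and 22.1 and highest values of 31.7, 31.1 and 34.3. Its log2 differences from generation 21 were 0.14 ± 0.019 (adjusted p = 2.03e-11) and 0.17 ± 0.018 (adjusted p = 9.37e-18). Zfp942 and Zfp952, both of chromosome 17, were higher in generation 22 by 0.12 ± 0.018 and 0.09 ± 0.015.

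On chromosome 17, Zfp948 had medians of 13.5, 14.3 and 15.6 CPM in generations 21, 22 and 23, between 6.26 and 18.8, 10.3 and 20.2, and 10.5 and 20.4 CPM. It was higher in generation 23 than in generation 21 by 0.25 ± 0.028 on the log2 scale (adjusted p = 5.00e-16). Zfp946, in the same cluster, had medians of 14.4, 15.4 and 16.3 CPM and was higher by 0.19 ± 0.021 (adjusted p = 5.58e-16). These 2 genes, with Zfp932 (0.12) and Zfp944 (0.07), were also the ones higher in generation 23 than in generation 22.

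The exceptions that were lower in generation 23 than in generation 21 were Zfp941 of chromosome 7, Zfp956 of chromosome 6 and Zfp964 of chromosome 8. Zfp941 had medians of 27.7, 26.9 and 24.0 CPM in the 3 generations, within 15.7 to 45, 8.89 to 47.5 and 13.7 to 37.9 CPM, and its log2 difference was -0.17 ± 0.036 (adjusted p = 1.14e-05). Zfp956 had medians of 11.1, 10.9 and 10.5 CPM and a log2 difference of -0.09 ± 0.018 (adjusted p = 6.94e-07), and Zfp964 had one of -0.09 ± 0.026 (adjusted p = 0.00173). All 3, and Zfp953 (-0.12), were also lower in generation 23 than in generation 22. The member lower in generation 22 than in generation 21 was Zfp982 (-0.53 ± 0.19, adjusted p = 0.0144). This gene has 2 modes, and its high mode held 38% of libraries in generation 21, 27.7% in generation 22 and 37.4% in generation 23.

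**Figure D5:**
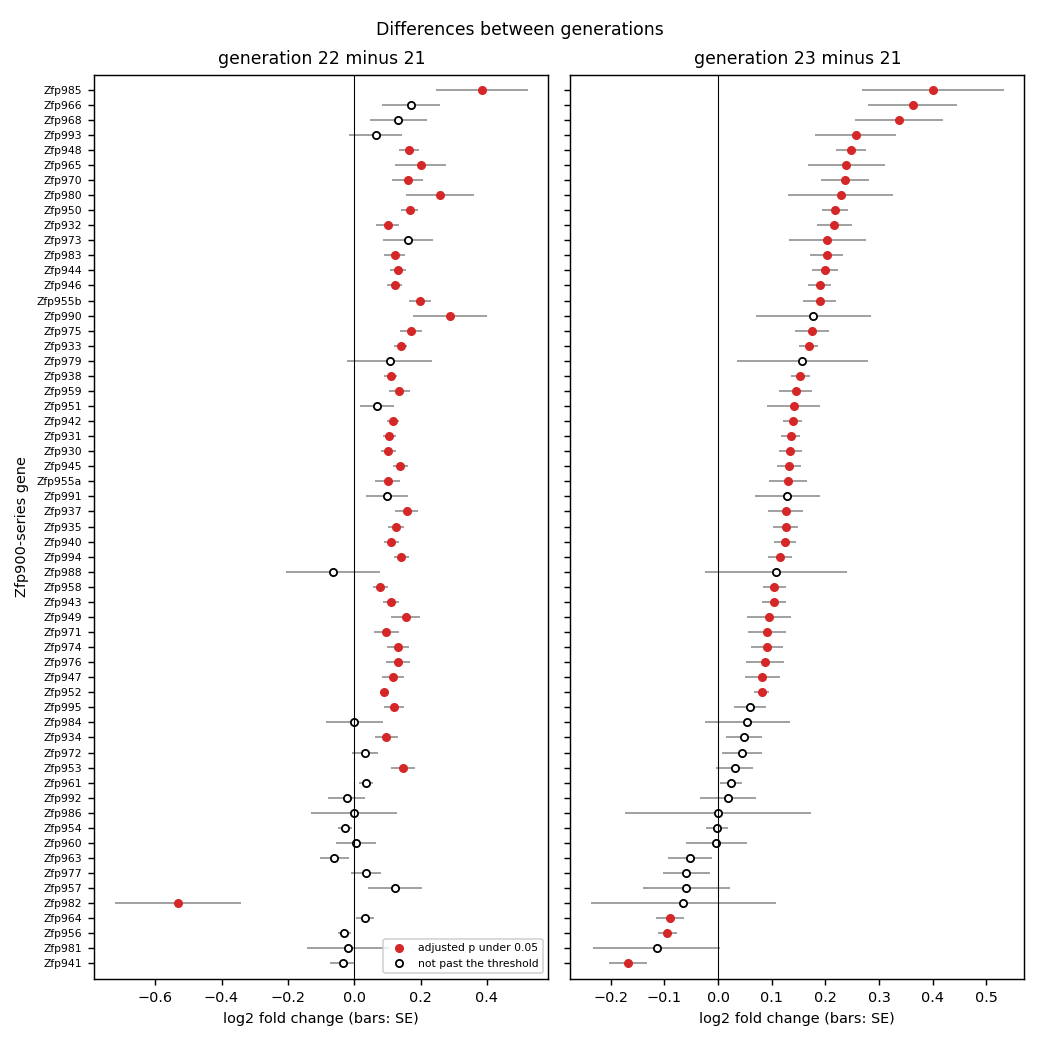
Log2 fold change with its SE (bars) of the 59 tested members between generations 22 and 21 (left) and 23 and 21 (right), with red points for an adjusted p under 0.05 and genes in the order of the right panel. Of the red points, 36 of 37 on the left and 37 of 40 on the right lie above 0, and Zfp982 is the low exception on the left.

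Other measures moved with generation as well. The list of 10 genes that mark excitatory cells of the cortex had 9 higher in generation 23 than in generation 21, and 6 higher and 1 lower in generation 22. Their summed level had medians of 104.8, 121.4 and 265.2 CPM in the 3 generations, over 71.2 to 962.6, 70.7 to 1093 and 73.1 to 981.4 CPM. Of the 12 spiny projection neuron genes, 8 were lower in generation 23 than in generation 21. The summed level of the 12 had medians of 8314, 8063 and 7538 CPM in the 3 generations, over 259.2 to 10140, 1583 to 9475 and 4053 to 9178 CPM. With scores of all 11 marker lists as covariates, 36 members passed between generations 23 and 21, 33 of them higher and 3 lower. In that fit 49.9% of all genes passed, 5506 higher and 5965 lower. Without the 29 libraries of low total or correlation, 14 of them in generation 21, 32 members differed between generations 22 and 21 (31 higher), beside 42.7% of all genes. Between generations 23 and 21, 35 members differed (32 higher), beside 56.9% of all genes. In bulk tissue, a different number of cells of a type and a different RNA level per cell cannot be told apart, nor can generation and the time at which its animals were bred and collected.

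Sex differences were not detected in the family as fitted. No member passed an adjusted p of 0.05 between females and males by edgeR's quasi-likelihood test, beside 2.86% of all genes (1.55% higher and 1.3% lower in females), and none did with DESeq2. At an unadjusted p under 0.05 there were 7 of 59 (11.9%), against 17.2% of all genes. The lowest adjusted p was 0.0916, of Zfp951 on chromosome 5, at a log2 difference of 0.12 ± 0.04 toward females, and with the marker list scores as covariates this gene was called. The difference between generations in the effect of sex was called for no member either, beside 0.322% of all genes, with 3 (5.09%) at an unadjusted p under 0.05, against 7.82% of all genes, and a lowest adjusted p of 0.0503, of Zfp959, which was called with RLE in place of TMM factors. DESeq2 called 0 there. Without the 29 libraries against their sex label both counts were again 0.

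Genes of the machinery through which KRAB zinc finger proteins act moved with generation in both directions. All 28 genes of that list were measured, with means from 2.70 CPM for Uhrf1 to 391.9 CPM for Chd3. Among them was Trim28 at 72.2 ± 4.93 CPM (SD, n = 416), which was lower in generation 23 than in generation 21 by a log2 difference of -0.09 (adjusted p = 6.73e-16 by edgeR's quasi-likelihood test). Between these generations 25 of the 28 passed, 12 higher and 13 lower, beside the 58.3% of all genes called. Between generations 22 and 21, 20 passed, 13 higher and 7 lower, beside 46.6% of all genes. Mphosph8, a subunit of the HUSH silencing complex, and Atrx, a chromatin remodeller that deposits histone H3.3 with Daxx, were among those higher in generation 23 than in generation 21, by 0.20 and 0.16 on the log2 scale. Ehmt2, a histone H3 lysine methyltransferase, was among those lower, at -0.13. Between generations 23 and 22, 1 was higher and 8 were lower, beside 18.2% of all genes called. Between the sexes, 2 of the 28 passed, beside 2.86% of all genes, both lower in females: Suv39h1 (-0.05) and Ehmt1 (-0.02).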

How the data were processed

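Per the labels' protocols, RNA was depleted of ribosomal RNA, made into stranded libraries and sequenced in pairs of 100 bases, and ERCC spike-ins were added and not used. The authors deposited 1 table of estimated counts per gene identifier (23.8% of values are not whole). Aligner, counter and build were not given in the sources used here, so reads shared by near copies were assigned in a way that is not known here. Names, order and biotypes came from GENCODE M21 by identifier (98.9% of 46517 matched), and promoter windows from RefSeq.

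Estimated counts were rounded. Library totals set the counting error, and the spread between animals sets the precision of the tests. edgeR 4.0.16 (R 4.3.3; TMM factors, filterByExpr with a minimum count of 10, robust quasi-likelihood test of sex, generation and their interaction, Benjamini-Hochberg over 22968 genes, two-sided, adjusted p under 0.05) was fitted to all 416 libraries of the 6 groups. DESeq2 1.42.0 was an alternative. CPM used TMM totals. Adjusted log2 CPM (prior count 2) had sex and generation removed. A gene with 2 modes, meaning 2 normal components, had a BIC gain above 10, Ashman's D above 2 and at least 5% of libraries in the smaller. Pair p-values came from 100000 permutations of libraries. Sequence sharing was the percentage of 100-base words of a gene's transcripts found in another gene.

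Named were the 6 highest genes per kb, the members with 2 modes, the 6 largest and 3 smallest spread ratios, up to 4 called per direction and contrast, and the strongest 6 and weakest 3 pairs, with other names chosen after their values were seen. The members and lists were chosen with earlier results of these data known. The scripts' tests were checked on simulated data.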

Additional observations from a re-analysis of the deposited data

Results flagged for a closer look

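The correlation of 9 pairs of consecutive members differed between generations, by the range of r over the 3 generations against 20000 permutations of the generation labels (Benjamini-Hochberg over 27 pairs, a test chosen after the data were seen). In all 9 pairs r was highest in generation 21, and 7 of the 9 lie on chromosome 17. The widest range was that of Zfp942 and Zfp943, 0.646, with r of 0.71, 0.30 and 0.07 in generations 21, 22 and 23 (permutation p = 5e-05, the smallest these permutations can give, adjusted p = 0.0009). Zfp947 and Zfp994 had a range of 0.574 (0.51, -0.07 and 0.11), Zfp994 and Zfp944 one of 0.572 (0.49, -0.08 and -0.02) and Zfp995 and Zfp942 one of 0.565 (0.55, 0.22 and -0.02). For Zfp944 and Zfp946 the range was 0.348, for Zfp946 and Zfp945 it was 0.463, and for Zfp943 and Zfp947 it was 0.297. Outside chromosome 17, Zfp930 and Zfp964 on chromosome 8 had a range of 0.511 (0.42, -0.10 and 0.08), and Zfp980 and Zfp992 on chromosome 4 one of 0.366 (adjusted permutation p = 0.0221).

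Without the 29 libraries of low total or correlation, 8 of the 9 pairs still passed, with adjusted permutation p up to 0.0262, and Zfp980 and Zfp992 did not (0.0518). In all, 10 pairs passed there. The pair of Zfp983 and Zfp995 and that of Zfp948 and Zfp983 (adjusted permutation p = 0.0204 for each) had not passed with all libraries. No chromosome 2 pair passed, but their ranges differed. For Zfp966 and Zfp973, r ranged by 0.0259 (adjusted permutation p = 0.802). For Zfp973 and Zfp970, r was lowest in generation 21, at 0.10, 0.38 and 0.40 in generations 21, 22 and 23. Its range was 0.3075 (adjusted permutation p = 0.118, and 0.0518 without the 29 libraries). Members on different chromosomes also had a higher median r in generation 21, 0.238 against 0.0427 and 0.0263, and so did all consecutive protein-coding genes, 0.153 against 0.0836 and 0.0705. Their part in the result was not tested.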

How the results depend on the processing

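With marker scores as covariates 1 member, Zfp951, was called between the sexes, and with RLE factors 1, Zfp959, was called for the interaction, against 0 for each as reported. The median r of consecutive members was 0.501 in generation 21 alone, and 2 members had 2 modes there. In generation 23 alone, r of Zfp952 and Zfp955a was -0.0446 and r of Zfp980 and Zfp992 was -0.0916. Over the alternatives the other counts of members stayed within 32 to 38 (generation 22 against 21), 35 to 41 (23 against 21), 6 to 9 (23 against 22) and 37 to 45 (any generation), and 26 pairs became 18 in generation 23 alone. In the same order, the shares of all genes called ran from 26.6% to 56.7%, 34.9% to 66.4%, 7.25% to 22.2% and 37.9% to 72.85%. Of 160 values of 20 named differences, 7 lost the threshold, all between generations 23 and 22, and 0 changed sign. The number of members with 2 modes went from 2 to 6. Where the alternative has fewer libraries, the test has less power. Otherwise the cause was not tested. No paired analysis was possible because the labels pair no samples across groups. Depth limits the members under 0.5 CPM, and counts of near copies rest on how reads were assigned.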

Other observations

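Zfp985 of chromosome 4, a member with a mean of only 0.226 CPM, varied more than the trend for its level (spread ratio 1.43). Of the 20 genes most like it, 18 lie on chromosome 4. An exception among its closest genes was Akr1e1, an aldo-keto reductase gene of chromosome 13, which ran opposite to it (r = -0.58 over 416 libraries, a description with no test). Its closest partners were Zfp979 (0.63) and Zfp980 (0.61).

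Of the other marker lists, fewer genes moved toward higher levels between generations 23 and 21. The thalamic list had 5 of 6 lower, although its summed level had medians of 147.3, 151.9 and 154.7 CPM in generations 21, 22 and 23, with highest values of 3473, 212.5 and 431 CPM. In the same comparison, the oligodendrocyte list had 1 of 7 higher and 5 lower, the astrocyte list 3 of 5 lower, the microglia list 1 of 5 higher and 4 lower, and the endothelial list 2 of 4 higher and 1 lower. Choroid plexus had 1 of 5 lower, ependymal genes 3 of 4, blood 2 of 3 and the neurogenic niche 3 of 5, each with none higher (edgeR's quasi-likelihood test). The summed choroid plexus level ranged most, from 6.71 to 15290 CPM in generation 21.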
